A study of Arabidopsis thaliana with 15 samples.

Results

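The step from 12 h to 24 h was taken from a time course of whole Arabidopsis thaliana seeds (Col-0) incubated in abscisic acid (ABA) after germination. It was made up of the 3 arrays of seeds incubated for 24 h and the 3 arrays of seeds incubated for 12 h, chosen by their titles, 6 of the 15 arrays of the series. All seeds had been stratified for 72 h at 4 °C and germinated at 22 °C in constant white light, and seeds whose radicle had just emerged were moved to 10 µM ABA in darkness at 20 °C. The other arrays, 3 for each time, held seeds taken at 0 h, 2 h and 72 h. Each array measured RNA of a separate pool of seeds from several plants. By its title the series follows the return of desiccation tolerance, which no value used here measures. Seeds incubated without ABA were not analysed here, so ABA, elapsed time and darkness cannot be told apart. In whole seeds, fewer cells of a type and less RNA per cell cannot be told apart either.

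ABA is the hormone of seed maturation and of drought responses. It is bound by PYR/PYL receptors, which then inhibit the clade A PP2C phosphatases and free SnRK2 kinases to activate bZIP factors such as ABI5 and, through them, late embryogenesis abundant (LEA) and storage protein genes. During germination this programme is switched off and gibberellin, cell wall loosening and cell division genes come on. Germinated seeds lose tolerance of drying as the radicle grows, and ABA given shortly after emergence is known to restore it.

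Levels are the log2 signals deposited by the authors, and every difference is the 24 h level minus the 12 h level, so that a difference of 1 is a 2-fold change. The value behind each ± is the standard error of that difference in the fit, with 3 arrays at each time. A locus was called, and is said to have risen or fallen, at an adjusted p under 0.05 in limma with Benjamini-Hochberg adjustment over all 27981 loci. On this test 1835 loci were called (6.56%), of which 770 rose (2.75%) and 1065 fell (3.81%). By at least 1 on the log2 scale, 251 loci rose (0.897%) and 325 fell (1.16%). The median difference was 0.82 over the loci that rose and -0.82 over those that fell, against 0.04 over all loci. The 24 h arrays lay wholly above the 12 h arrays in 769 of the 770 risers and wholly below them in all 1065 fallers. Over all loci, whether called or not, that separation occurred upwards in 17.9% and downwards in 20.0%. Such separation was required of the called genes named by rule below, so there it describes the arrays and adds nothing to a call.

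The array of 2 h replicate 2 stood apart and entered the shared estimate of the spread. It correlated with the other 2 h arrays at r of 0.889 to 0.901 across loci, against 0.986 to 0.995 between other arrays of a time. Without it 2510 loci rose (8.97%) and 3463 fell (12.4%), and these included all 1835 loci called with it. Counts of list members are therefore given with that array and, for lists in which rises or falls moved by over 1.5 times, also without it. The lists were chosen with earlier results of these data known. Shares of list members set beside those of all loci are therefore descriptions, not tests.

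**Figure D1:**
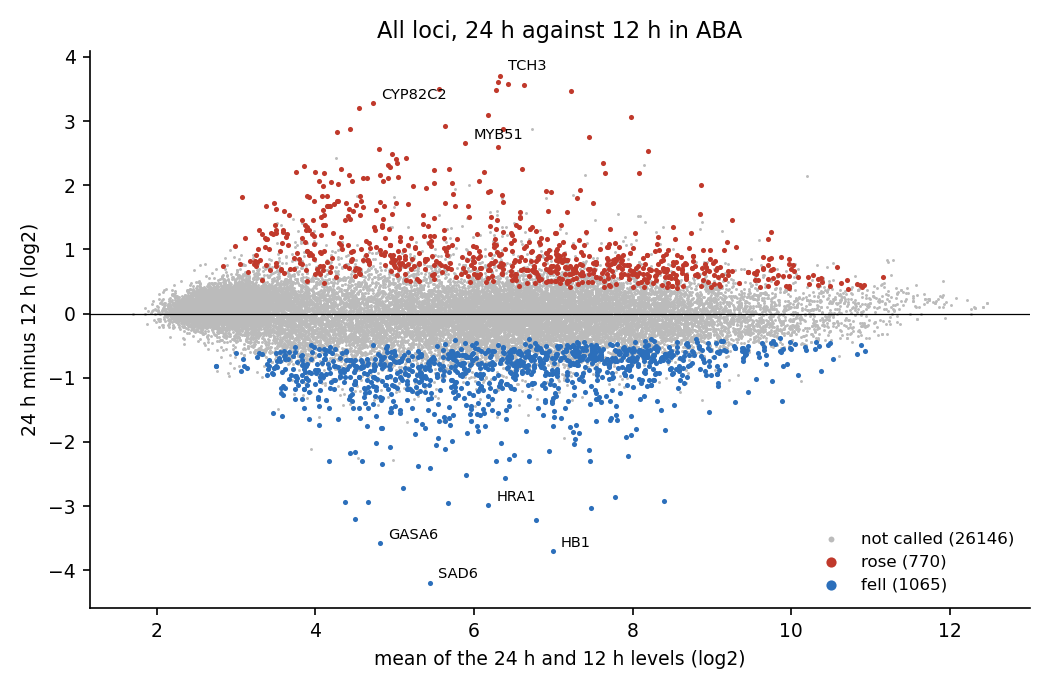
Difference between 24 h and 12 h (log2, vertical axis) against the mean level of those arrays (log2, horizontal axis), 1 point per locus. Red points rose (770), blue points fell (1065) and grey points were not called (26146). The lowest point is SAD6 at -4.19 and the highest is TCH3 at 3.70.

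The core hypoxia response included the 2 deepest falls among named genes and fell in most of its members. In plants this response is switched on by group VII ERF factors, which are destroyed while oxygen is available, and it supplies ethanol fermentation, hemoglobin and feedback regulators. Of 26 measured members 16 fell (61.5%) and none rose, beside 3.81% and 2.75% of all loci. The median difference of the list was -1.50, against 0.04 over all loci, and 14 of the 16 fell by at least 1. Without 2 h replicate 2 the count was 20, beside 12.4% of all loci, and leaving out each of the 6 compared arrays left 11 to 13.

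SAD6, a stearoyl-ACP desaturase gene, had 3.37, 3.42 and 3.24 at 24 h, against 7.41, 7.68 and 7.52 at 12 h. HB1, which encodes the hypoxia-inducible hemoglobin, had 5.58, 4.76 and 5.07 at 24 h, against 9.02, 8.85 and 8.66 at 12 h. The 24 h arrays of both genes lay far below all 12 h arrays. SAD6 fell by 4.19 ± 0.13 (adjusted p = 4.28e-10) and HB1 fell by 3.71 ± 0.33 (adjusted p = 5.45e-05), in limma.

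Regulators within the response fell as well. HRA1, a trihelix factor that restrains the group VII ERF factor RAP2.12, had 5.21, 4.18 and 4.67 at 24 h, against 7.68, 7.77 and 7.57 at 12 h, a difference of -2.99 ± 0.28. LBD41, a LOB domain factor, had 6.67, 6.18 and 6.11 at 24 h, against 8.62, 8.64 and 8.57 at 12 h, a difference of -2.29 ± 0.27. The plant cysteine oxidases PCO1 and PCO2 mark group VII ERF factors for breakdown. PCO1 had 6.71, 5.92 and 6.35 at 24 h, against 8.09, 8.28 and 8.13 at 12 h. PCO2 had 6.33, 6.35 and 6.22 at 24 h, against 8.02, 8.49 and 8.27 at 12 h. In each of these 4 genes no 24 h array reached a 12 h array, and the adjusted p in limma was between 6.38e-05 for HRA1 and 0.00737 for PCO2.

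In the fermentation branch, the alcohol dehydrogenase gene ADH1 had 6.31, 7.30 and 6.88 at 24 h, against 9.16, 9.01 and 9.00 at 12 h. It fell by 2.23 ± 0.26 (adjusted p = 0.000349, limma). The pyruvate decarboxylase gene PDC1 had 3.26, 4.49 and 4.08 at 24 h, against 5.71, 5.65 and 5.86 at 12 h. Its arrays did not overlap either, but with a standard error of 0.65 the difference of -1.80 was not called (adjusted p = 0.129). PDC2, a second decarboxylase gene, had a difference of 0.24 ± 0.38 and was not called. Ethylene genes of the list were ACO1, an ethylene-forming oxidase, with -1.57 ± 0.33, and the receptor gene ETR2, with -0.64 ± 0.16. The ACO1 call was lost without 24 h replicate 2, 24 h replicate 3 or 12 h replicate 1, and the ETR2 call when any single array of the 6 was left out. The ethylene-forming oxidase gene ACO4, which stands in a separate list of 11 ethylene genes, rose by 1.22 ± 0.18 (adjusted p = 0.00186, limma) and was the list's only call, against 3 rises without 2 h replicate 2.

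**Figure D2:**
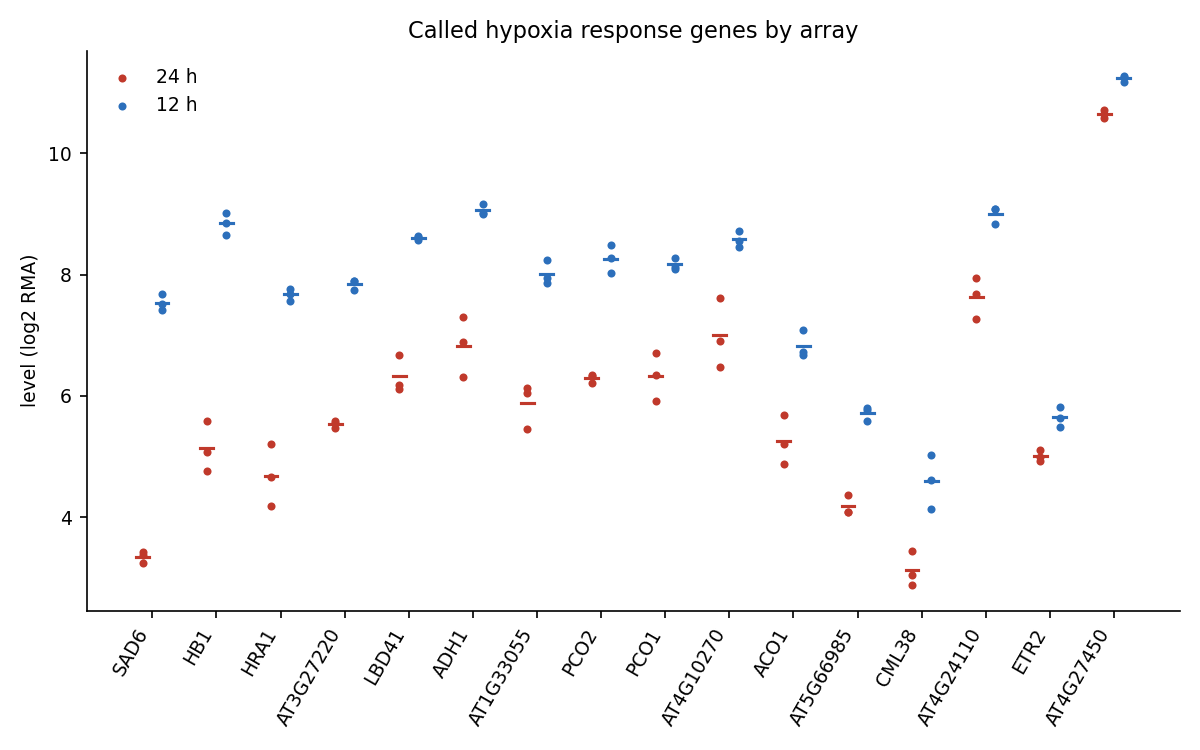
Level (log2, vertical axis) of the 16 hypoxia response genes that fell, with 24 h arrays (red) left of 12 h arrays (blue), points for arrays and bars for means. In each gene all 3 points of 24 h lie below all 3 of 12 h, most widely in SAD6 with a difference of -4.19.

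Some genes of cell expansion were also among the large falls. GASA6, a gibberellin-induced peptide gene that promotes cell elongation in germination, had 3.46, 2.75 and 2.86 at 24 h, against 6.56, 6.63 and 6.62 at 12 h. It fell by 3.58 ± 0.27 (adjusted p = 1.28e-05, limma). AT4G34790, named SAUR3 in the reference table and a member of the small auxin upregulated RNA family, had 7.55, 6.30 and 6.95 at 24 h, against 9.96, 9.88 and 9.73 at 12 h. AT5G66260, named SAUR11 there, had 4.64, 4.04 and 3.91 at 24 h, against 7.43, 6.86 and 7.15 at 12 h. No array overlapped in any of these genes, and both SAUR genes fell by close to 3, with differences of -2.92 ± 0.30 and -2.95 ± 0.44. Both were named for the size of their fall. The SAUR family of 80 genes did not fall as a whole, with a median of 0.06, 5 falls (6.25%) and 1 rise. Without 2 h replicate 2, 10 of the 80 fell, close to the 12.4% of all loci.

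Among 24 expansins, which loosen the wall, 3 fell (12.5%) and none rose, beside 3.81% and 2.75% of all loci. EXPA8 had 4.34, 4.14 and 4.25 at 24 h, against 6.80, 6.56 and 6.60 at 12 h, and fell by 2.41 ± 0.20 (adjusted p = 3.82e-05, limma). EXPA1 fell by 2.13 ± 0.16 and EXPA10 by 1.56 ± 0.29. The list's median was -0.27, and 7 fell and 2 rose without 2 h replicate 2, beside 12.4% and 8.97% of all loci.

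Xyloglucan transferases, which cut and rejoin wall polymers, were mixed. Of 22 genes 4 fell (18.2%) and 1 rose, beside 3.81% and 2.75% of all loci, and the median was -0.03. Without 2 h replicate 2, 5 fell and 3 rose, beside 12.4% and 8.97% of all loci. XTH33 had 3.14, 2.89 and 2.68 at 24 h, against 6.16, 5.88 and 5.47 at 12 h, and fell by 2.94 ± 0.36 (adjusted p = 0.000508, limma). XTH18 fell by 1.59 ± 0.31, a call lost without 24 h replicate 2 (adjusted p = 0.0544), and XTH31 fell by 1.36 ± 0.20. The riser was XTH22, also known as the touch-induced gene TCH4, which had 7.24, 8.38 and 7.56 at 24 h, against 6.22, 6.22 and 5.97 at 12 h, and rose by 1.59 ± 0.25.

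Of 32 gibberellin genes 5 fell (15.6%) and none rose, beside 3.81% and 2.75% of all loci, although the list's median was 0.10. Besides GASA6 they were the synthesis genes GA3OX2 (-1.23 ± 0.29), GA20OX3 (-0.75 ± 0.19) and GA3 (-0.56 ± 0.13), and SLY1 (-0.49 ± 0.13), whose F-box protein removes DELLA repressors. Centring each array on its median left 2 of the 5 calls, and leaving out single compared arrays left 1 or 2. With 2 h replicate 2 left out, 7 fell and 3 rose, beside 12.4% and 8.97% of all loci.

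Genes of DNA replication, the helicase, clamp and nucleotide supply of S phase, were lower at 24 h. All 14 members had a difference below 0 and 9 of them fell (64.3%), beside 3.81% of all loci. The median was -0.82, against 0.04 over all loci. The falls numbered 14 without 2 h replicate 2, beside 12.4% of all loci, and 4 or 5 when any of the 6 compared arrays was left out. PCNA1, the sliding clamp of the replication fork, had 6.03, 5.74 and 5.41 at 24 h, against 7.10, 7.38 and 7.01 at 12 h, and fell by 1.44 ± 0.15 (adjusted p = 0.000207, limma). TSO2, the small subunit of ribonucleotide reductase, had 7.63, 7.51 and 7.61 at 24 h, against 8.59, 8.62 and 8.57 at 12 h, and fell by 1.01 ± 0.13 (adjusted p = 0.000576). In both genes every 24 h array was below every 12 h array. The second clamp gene PCNA2 fell by 1.0 ± 0.23 and the large reductase subunit RNR1 by 0.87 ± 0.23, both calls lost without single arrays (adjusted p up to 0.097 and 0.133). Of the helicase genes MCM2 to MCM7, MCM3, MCM4 and MCM7 fell, the first and second losing their call when any single array of the 6 was left out, with MCM7 at -0.80 ± 0.14, and the helicase partner CDC45 had -0.79 ± 0.16.

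Cyclins, cyclin-dependent kinases and mitosis genes gave 3 falls and 1 rise among 32, beside 3.81% and 2.75% of all loci, with a median of -0.43. Without 2 h replicate 2 there were 16 falls and 2 rises, beside 12.4% and 8.97% of all loci. CYCD4.1 had 4.96, 4.85 and 4.61 at 24 h, against 5.87, 5.66 and 5.78 at 12 h, and fell by 0.96 ± 0.18 (adjusted p = 0.00792, limma). The mitotic cyclin CYCB1.2 had a difference of -0.68 ± 0.16 and the A-type cyclin CYCA1.1 one of -0.59 ± 0.13, and both calls were lost on centring each array. CYCD1.1 went the other way with 0.64 ± 0.13, a call lost without 12 h replicate 1 or 12 h replicate 3 (adjusted p up to 0.0578). Cytosolic ribosomal protein genes had a median of -0.26 over 29 members, of which 2 fell (6.90%), RPL10B and RPL5B, and neither call held when single arrays were left out. Without 2 h replicate 2, 9 of the 29 fell, beside 12.4% of all loci.

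The largest rises included genes of the indole branch of defence chemistry. In this branch tryptophan is turned into indole-3-acetaldoxime, from which Arabidopsis makes indole glucosinolates, the phytoalexin camalexin and related indole nitriles. Of 14 listed genes 6 rose (42.9%) and 1 fell (7.14%), beside 2.75% and 3.81% of all loci. The list's median was 0.43, against 0.04 over all loci. Leaving out single compared arrays left 5 or 6 rises. Without 2 h replicate 2, 8 rose and 3 fell, beside 8.97% and 12.4% of all loci.

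CYP71A13, which makes indole acetonitrile for camalexin, had 8.24, 8.14 and 7.94 at 24 h, against 4.59, 4.37 and 4.56 at 12 h. PAD3, the enzyme that closes the camalexin pathway, had 6.09, 5.44 and 6.11 at 24 h, against 2.66, 2.94 and 3.41 at 12 h. Neither gene's arrays overlapped, and they rose by 3.61 ± 0.49 (adjusted p = 0.00109, limma) and 2.88 ± 0.31 (adjusted p = 0.000219). CYP71A12, a close copy of CYP71A13, rose by 1.82 ± 0.26, and cross-hybridisation between them was not tested. CYP82C2, which acts on a related indole nitrile and is outside the list, had 6.57, 6.33 and 6.19 at 24 h, against 2.90, 3.18 and 3.17 at 12 h, and rose by 3.28 ± 0.20 (adjusted p = 1.4e-06).

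The MYB factors that govern the branch differed among themselves. MYB51 had 7.16, 7.27 and 7.21 at 24 h, against 4.53, 4.68 and 4.46 at 12 h, and rose by 2.66 ± 0.15 (adjusted p = 1.11e-06, limma). MYB122 had 4.10, 4.22 and 3.94 at 24 h, against 2.76, 3.05 and 2.73 at 12 h, and rose by 1.24 ± 0.28, a call lost without 4 of the 6 arrays in turn. MYB34, the third of these factors, had a difference of -0.47 ± 0.21 and was not called (adjusted p = 0.224). The entry enzymes CYP79B2 (-0.17 ± 0.33), CYP79B3 (-0.30 ± 0.41) and CYP83B1 (-0.51 ± 0.20) were not called. SOT16, a sulfotransferase of core glucosinolate assembly, fell by 0.59 ± 0.16, lost when any single array of the 6 was left out.

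Among genes that modify finished indole glucosinolates, CYP81F2, which hydroxylates the indole ring, had 7.31, 7.24 and 7.30 at 24 h, against 5.47, 5.13 and 5.72 at 12 h, and rose by 1.84 ± 0.20 (adjusted p = 0.000219, limma). The methyltransferases IGMT2, IGMT3 and IGMT4 act on the hydroxylated product. IGMT3 had 9.09, 9.04 and 8.75 at 24 h, against 6.01, 4.82 and 5.64 at 12 h, and IGMT4 had 8.23, 7.86 and 7.95 at 24 h, against 4.74, 3.38 and 5.49 at 12 h. IGMT2 had 9.63, 9.49 and 9.42 at 24 h, against 7.04, 5.89 and 6.43 at 12 h. The 12 h arrays of all 3 were widely spread, with replicate 2 lowest, and still lay below every 24 h array. Their differences were 3.47 ± 0.45, 3.48 ± 0.57 and 3.06 ± 0.49. These genes are close copies, and cross-hybridisation between them was not tested. Of 19 genes of the aliphatic glucosinolate branch none rose, beside 2.75% of all loci, and 1 fell, or 1 and 2 without 2 h replicate 2. The gene that fell was SUR1 at -0.59 ± 0.16, a C-S lyase gene that also serves the indole branch, whose call was lost with either rescaling of the arrays.

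Genes that react within minutes to touch and other stress rose in part. Of 18 members 5 rose (27.8%) and none fell, beside 2.75% and 3.81% of all loci. Their median was 0.48, and 2 or 3 rose when single compared arrays were left out. TCH3, a calmodulin-like gene, had 7.80, 8.32 and 8.42 at 24 h, against 4.11, 3.72 and 5.60 at 12 h, and rose by 3.70 ± 0.54 (adjusted p = 0.00159, limma), the largest rise of any named gene. WRKY33, an activator of camalexin genes, had 8.71, 8.98 and 8.72 at 24 h, against 6.78, 6.20 and 6.38 at 12 h, and rose by 2.35 ± 0.26 (adjusted p = 0.000238). In both genes the lowest 24 h array was above the highest 12 h array. The zinc finger gene ZAT10 had 2.42 ± 0.64, a call lost when any single array of the 6 was left out (adjusted p up to 0.147). WRKY40 had 0.91 ± 0.19, lost without 24 h replicate 2, 12 h replicate 1 or 12 h replicate 2 (adjusted p up to 0.0591). The cold response factors CBF1, CBF2 and CBF3 had differences from 0.01 to 0.15 and were not called.

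The remaining large rises included ERF6, an ethylene response factor, with 6.93, 7.24 and 7.10 at 24 h, against 4.40, 3.95 and 4.17 at 12 h. GSTU12, a glutathione S-transferase gene of the tau class, had 8.28, 8.31 and 8.08 at 24 h, against 4.80, 4.26 and 4.86 at 12 h. Both were separated at every array, with differences of 2.92 ± 0.51 and 3.58 ± 0.36. GRP3S, a glycine-rich protein gene, had 7.33, 8.95 and 8.98 at 24 h, against 5.35, 4.30 and 4.90 at 12 h, with replicate 1 lowest at 24 h, and rose by 3.57 ± 0.44. The loci AT1G26380, AT1G19020 and AT1G15125 rose by 3.50 ± 0.34, 3.20 ± 0.28 and 3.09 ± 0.55. Among the deepest falls outside the groups above, the carboxypeptidase-like gene scpl44 fell by 3.03 ± 0.50 and the methyl esterase gene MES10 by 2.85 ± 0.22. The loci AT1G12805, AT2G17850 and AT4G33560 fell by 3.21 ± 0.22, 3.21 ± 0.25 and 2.94 ± 0.56. All 24 of the largest changes were called under every alternative fitted to 1 probe set per locus, single arrays left out included.

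With all arrays, few genes of the ABA programme were called over this step, and few of all loci (2.75% rose and 3.81% fell). RD29B, EM1, EM6 and RAB18, which ABA induces, were already high at 12 h. EM1 had 10.57, 10.78 and 10.77 at 24 h, against 10.35, 10.30 and 10.34 at 12 h and a mean of 4.02 at 0 h. RAB18, a dehydrin gene, had 11.50, 11.56 and 11.52 at 24 h, against 11.30, 11.20 and 11.04 at 12 h and a mean of 6.24 at 0 h. Differences were 0.38 ± 0.20 for EM1, 0.34 ± 0.35 for RAB18, 0.25 ± 0.27 for EM6 and 0.25 ± 0.20 for RD29B, and none was called although the 24 h arrays lay above the 12 h arrays in each. Without 2 h replicate 2, EM1 was called (adjusted p = 0.0356, limma), while RAB18, EM6 and RD29B were not. Of the maturation factors, ABI5 had 0.28 ± 0.14 (adjusted p = 0.297) and ABI3 had 0.01 ± 0.21 with overlapping arrays. EEL, a bZIP factor that competes with ABI5 at EM1, was the only one of 23 maturation and ABA factors called. It had 9.49, 9.87 and 9.88 at 24 h, against 8.79, 8.45 and 8.67 at 12 h, and rose by 1.11 ± 0.22 (adjusted p = 0.009, limma). Without 2 h replicate 2, 8 of the 23 rose and 1 fell, beside 8.97% and 12.4% of all loci, so the few calls depended on that array.

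Among 53 LEA genes none rose, beside 2.75% of all loci, 43 had a difference above 0, and the median was 0.15. The 2 that fell were the dehydrin gene COR47, with 7.16, 7.07 and 6.98 at 24 h, against 8.72, 8.33 and 8.50 at 12 h, and AT2G03850. Both calls were lost without single arrays, as for COR47 without 24 h replicate 2, 24 h replicate 3 or 12 h replicate 1 (adjusted p up to 0.0589). Without 2 h replicate 2, 6 of the 53 LEA genes rose, near the 8.97% of all loci, and 2 fell, beside 12.4%. No storage or oil body gene of 22 was called by limma, although their median was 0.51, and 2 were higher at an unadjusted p under 0.05. Within that list the cruciferin gene CRC had 10.72, 11.61 and 11.49 at 24 h, against 9.05, 9.25 and 9.10 at 12 h. These arrays were far apart, yet the standard error from all 15 arrays was 0.88, and the difference of 2.14 was not called (adjusted p = 0.184). Without 2 h replicate 2, 7 of the 22 storage or oil body genes rose and 2 fell, beside 8.97% and 12.4% of all loci.

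In the signalling chain, PYL2, an ABA receptor gene, was the only call among 14 receptors, of which 1 rose and 2 fell without 2 h replicate 2. It had 4.50, 4.70 and 4.75 at 24 h, against 7.01, 7.17 and 7.30 at 12 h, and fell by 2.51 ± 0.45 (adjusted p = 0.00513, limma). Of 9 clade A PP2C phosphatases 2 rose (22.2%), beside 2.75% of all loci. ABI2 had 7.28, 7.51 and 7.78 at 24 h, against 6.61, 6.42 and 6.64 at 12 h, and ABI1 had 7.34, 7.40 and 7.49 at 24 h, against 6.85, 6.66 and 6.57 at 12 h. Both sets were separated, with 0.97 ± 0.25 and 0.72 ± 0.17, but each call was lost without single arrays (adjusted p up to 0.14 and 0.0988). None of 10 SnRK2 kinases and none of 15 genes of ABA synthesis and breakdown was called by limma. At an unadjusted p under 0.05 there were 2 and 4, beside 19.8% of all loci. Of the SnRK2 genes 1 rose and 1 fell without 2 h replicate 2, and of the synthesis and breakdown genes 2 rose and 1 fell. Over all loci 8.97% rose and 12.4% fell in that setting, so such small counts say little about the lists of this paragraph. Of 23 ABA response markers, of which 2 rose and 1 fell without 2 h replicate 2, COR413IM1, a gene of the plastid inner membrane, rose by 0.97 ± 0.14 and the cold- and ABA-induced gene KIN2 fell by 1.08 ± 0.22, a call lost without 4 of the 6 arrays in turn. DIN10, a raffinose synthase-like gene, was the only call among 18 sugar genes and fell by 1.66 ± 0.19, while 3 rose and 2 fell without 2 h replicate 2.

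Some clock and light genes rose, in seeds kept in darkness since 0 h. The clock consists of morning MYB-like factors and evening pseudo-response regulators that repress each other. Of 24 clock genes 4 rose (16.7%) and none fell, beside 2.75% and 3.81% of all loci, with a median of 0.42. Without 2 h replicate 2 the rises numbered 10, beside 8.97% of all loci. PRR5, a pseudo-response regulator, had 6.99, 7.40 and 7.60 at 24 h, against 5.97, 5.45 and 6.10 at 12 h, and rose by 1.49 ± 0.28 (adjusted p = 0.00675, limma). RVE7, a MYB-like factor, had 6.93, 6.86 and 7.13 at 24 h, against 5.32, 5.51 and 5.55 at 12 h, and rose by 1.51 ± 0.28 (adjusted p = 0.00639). No array overlapped in either. RVE4 rose by 0.90 ± 0.16 and TOC1 by 0.69 ± 0.15, the last of which was lost without 4 of the 6 arrays in turn (adjusted p up to 0.0734). Of 18 genes of light perception and signalling 2 rose (11.1%), beside 2.75% of all loci, and 6 without 2 h replicate 2, beside 8.97%. The 2 were the phytochrome-interacting factors PIF6 (1.89 ± 0.38) and PIF4 (1.12 ± 0.27). PIF6 had 7.48, 8.17 and 8.10 at 24 h, against 6.32, 5.93 and 5.83 at 12 h, a call that needed 24 h replicate 2 (adjusted p = 0.0523 without it). PIF4 was lost without each of the 6 arrays in turn (adjusted p up to 0.109).

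Among 47 nuclear genes of photosynthesis 4 rose (8.51%) and 1 fell, beside 2.75% and 3.81% of all loci. Without 2 h replicate 2, 19 rose and 8 fell, beside 8.97% and 12.4% of all loci. PSAH1, a photosystem I subunit gene, had 8.16, 7.78 and 7.94 at 24 h, against 6.51, 6.13 and 6.51 at 12 h, and rose by 1.58 ± 0.23 (adjusted p = 0.00168, limma). The antenna genes LHCB1.3 (1.91 ± 0.47) and LHCB3 (1.21 ± 0.26) and the photosystem II gene PSBQ2 (1.17 ± 0.24) also rose, but each lost its call without single arrays, among them 24 h replicate 3 and 12 h replicate 2 for all 3. RBCS2B, a Rubisco small subunit gene, fell by 0.99 ± 0.23, a call that held only without 24 h replicate 1 when arrays were left out in turn. Of 26 chlorophyll synthesis and early light-induced genes 1 rose and 2 fell, LIL3:2 with 0.66 ± 0.13 against LIL3:1 with -0.72 ± 0.18 and CHLI2 with -0.78 ± 0.20. Both falls were lost without single arrays (adjusted p up to 0.145), while 3 genes of this list rose and 7 fell without 2 h replicate 2.

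**Figure D3:**
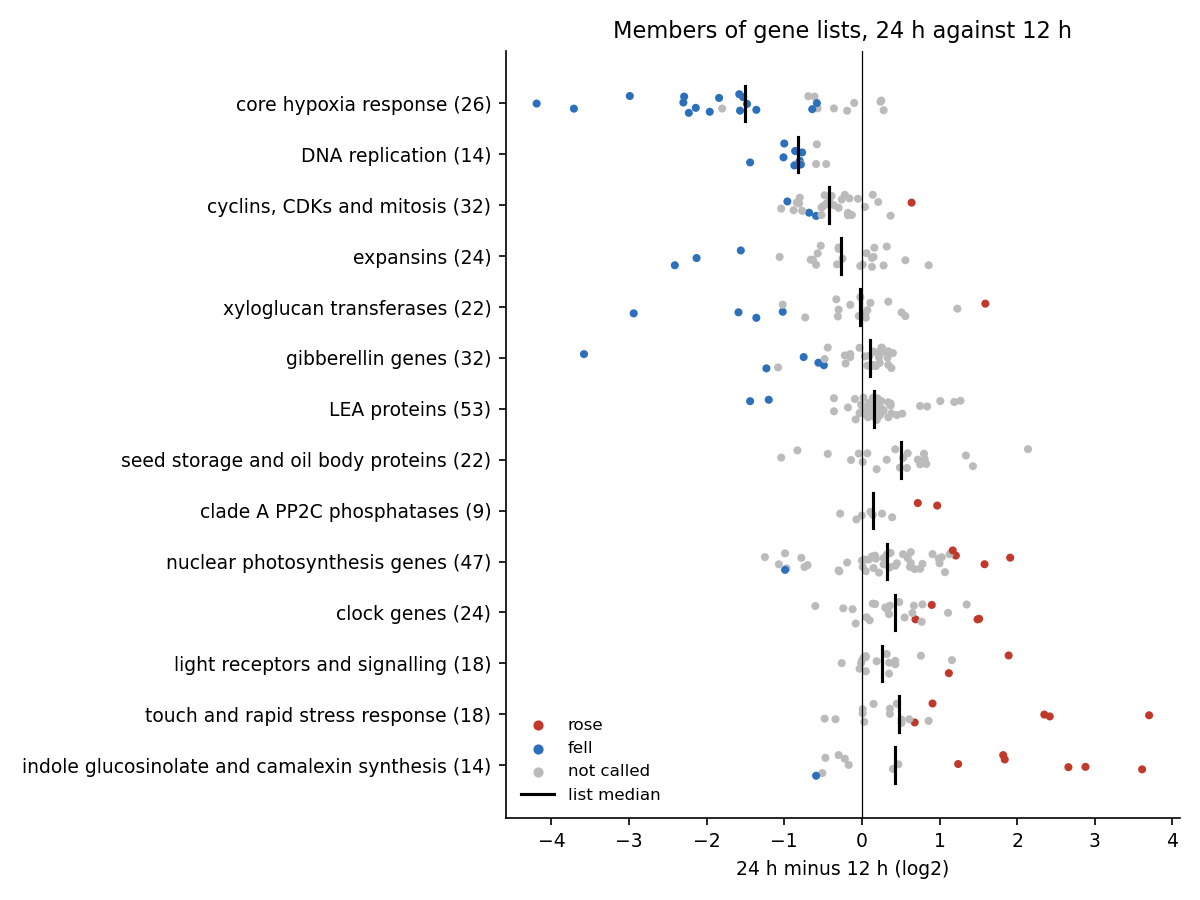
Difference between 24 h and 12 h (log2, horizontal axis) for every measured member of 14 gene lists, with the number measured in brackets. Red points rose, blue points fell, grey points were not called and black bars are list medians, lowest in the hypoxia response at -1.50 and highest in the storage and oil body list at 0.51.

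With all arrays, single calls came from other lists of metabolism and transport. PDS1, of tocopherol synthesis, rose by 1.05 ± 0.24, the tonoplast aquaporin TIP1.2 by 1.23 ± 0.25, the acetate-activating gene ACN1 by 0.84 ± 0.18 and the dormancy-associated gene DRM1 by 0.49 ± 0.13. These 4 calls were each lost without at least 1 array, TIP1.2 without 12 h replicate 2 alone (adjusted p = 0.0532). Without 2 h replicate 2, the 21 tocopherol and antioxidant genes had 3 rises and 3 falls and the 10 tonoplast aquaporins 4 rises. The 20 oil breakdown genes then had 2 rises and 8 falls, and the 19 dark and starvation genes 4 rises and 1 fall. Over all loci 8.97% rose and 12.4% fell in that setting. In oil synthesis the desaturase gene FAD2 and the plastid pyruvate kinase gene PKPA had 0.60 ± 0.17 and 0.40 ± 0.11, and the enoyl-ACP reductase gene MOD1 had -0.69 ± 0.15, of which none held without each array in turn, and 3 oil synthesis genes rose and 3 fell without 2 h replicate 2. None of 19 small heat shock and heat response genes, 20 flavonoid genes, 13 plasma membrane aquaporins or 15 root hair genes was called by limma. Their counts at an unadjusted p under 0.05 were 5, 1, 3 and 1, beside 19.8% of all loci. When 2 h replicate 2 was left out, 4 heat response genes rose and 1 fell, 1 flavonoid gene fell, 1 of these aquaporins rose and 2 fell, and 2 root hair genes rose.

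Genes of the organelle genomes had small median differences. Of 129 mitochondrial loci 18 fell (14.0%) and 2 rose, beside 3.81% and 2.75% of all loci, with a median of -0.18. Without 2 h replicate 2, 38 fell and 8 rose, beside 12.4% and 8.97% of all loci. The falls numbered 4 without 12 h replicate 2. ATMG01090 had 10.03, 9.93 and 9.84 at 24 h, against 10.82, 11.00 and 10.66 at 12 h, and fell by 0.89 ± 0.15 (adjusted p = 0.00423, limma). Of 132 plastid loci 6 rose (4.55%) and 1 fell, beside 2.75% and 3.81% of all loci, with a median of 0.21. Without 2 h replicate 2, 36 rose and 4 fell, beside 8.97% and 12.4% of all loci. Leaving out single compared arrays left 0 to 2 plastid rises and 0 to 3 falls. Repeated quantile normalization gave 15 rises and 1 fall with a median of 0.08. The largest plastid rise with all arrays was ATCG00690, with 7.69, 7.50 and 7.44 at 24 h, against 6.64, 6.59 and 6.39 at 12 h. Its difference was 1.0 ± 0.22, and this call too was lost without single arrays (adjusted p up to 0.0765).

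Markers of particular seed tissues were followed over the same arrays. The mean level of 14 endosperm and seed coat markers was 5.82 to 5.97 at 24 h, against 5.95 to 6.08 at 12 h. None was called by limma, 2 were lower at an unadjusted p under 0.05, and 2 fell without 2 h replicate 2. The 5 root meristem markers had means of 5.54 to 5.74 at 24 h, against 5.56 to 5.62 at 12 h, and none was called or reached an unadjusted p under 0.05. The 9 xylem and secondary wall markers had 3.58 to 3.95 at 24 h, against 3.18 to 3.46 at 12 h, and 2 rose, the cellulose synthase gene CESA8 by 0.86 ± 0.17 and the wall regulator MYB46 by 0.68 ± 0.18. The count was 4 of the 9 without 2 h replicate 2, beside 8.97% of all loci. MYB46 lost its call without 5 of the 6 arrays in turn and under repeated quantile normalization. The part of changed tissue shares in the results above was not tested.

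Over the whole course the risers and fallers of the step behaved differently. Of the 770 risers 407 (52.9%) had their highest mean at 72 h and 270 (35.1%) at 24 h itself, while 88 (11.4%) were highest at 0 h. Of the 1065 fallers 730 (68.5%) had their lowest mean at 72 h and 289 (27.1%) at 24 h. By the call itself no riser can be highest, and no faller lowest, at 12 h. These shares, and the times of the called genes that follow, are therefore fixed in part by the choice of loci. All but CYP81F2 of the 6 indole genes had their highest mean at 24 h, while all but WRKY33 of the 5 touch genes had it at 0 h. CYP71A13 had means of 2.83, 3.64, 4.50, 8.11 and 4.68 at 0, 2, 12, 24 and 72 h, and PAD3 had 2.32, 2.59, 3.0, 5.88 and 2.64. TCH3 started high, with 9.52, 6.41, 4.48, 8.18 and 5.09. The hypoxia genes SAD6, with 8.94, 8.58, 7.54, 3.35 and 3.23, and HB1, with 9.81, 9.08, 8.84, 5.14 and 3.94, had the larger part of their decline between 12 h and 24 h. PCNA1 had 7.68, 7.23, 7.16, 5.72 and 4.73, a decline that went on to 72 h. PRR5 had 4.70, 4.45, 5.84, 7.33 and 8.64, with the step as part of a longer climb.

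**Figure D4:**
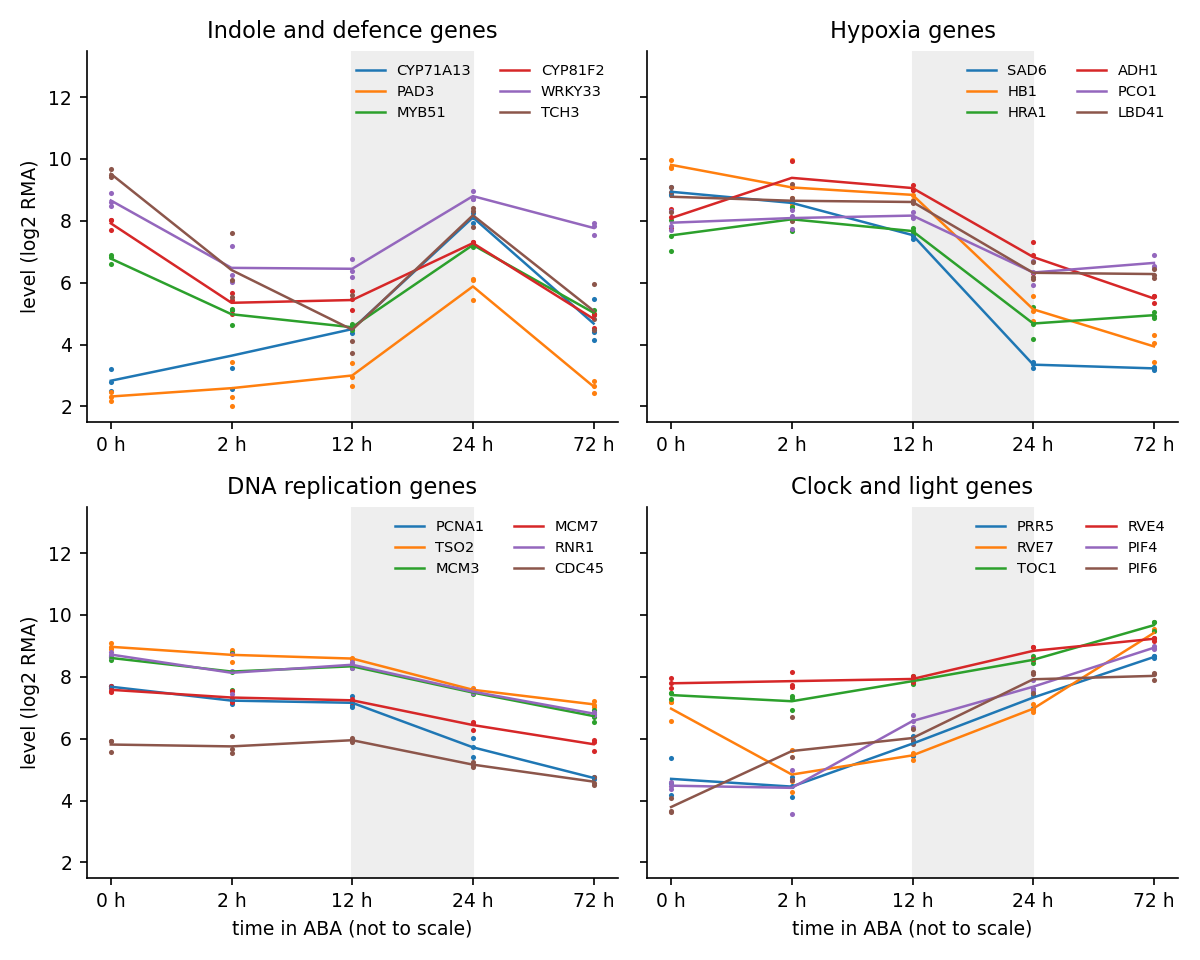
Level (log2, vertical axis) of 6 genes in each of 4 groups at 0, 2, 12, 24 and 72 h in ABA (horizontal axis, not to scale), with points for arrays, lines through means and the step from 12 h to 24 h shaded. CYP71A13 and PAD3 are highest at 24 h, with means of 8.11 and 5.88, while SAD6 is at 3.35 at 24 h and 3.23 at 72 h.

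Arrays outside the step were also compared for its genes. The comparison of 72 h with 0 h shares no array with the step, although both draw on 1 estimate of the spread per locus. A locus with a small estimate is more readily called in both, so the shares below are not independent of the step. How much of the overlap comes from this was not tested. Of the 770 risers 528 (68.6%) were also higher at 72 h than at 0 h, which is 10.3% of the 5137 loci that rose there, and 85 (11.0%) were lower. Of the 1065 fallers 953 (89.5%) were also lower at 72 h than at 0 h, 16.9% of the 5640 loci that fell there, and 17 (1.60%) were higher. Over all loci 18.4% were higher and 20.2% lower at 72 h. At 2 h against 0 h, 161 of the risers (20.9%) were higher and 158 (20.5%) lower, against 6.95% and 8.89% of all loci. Of the fallers 43 (4.04%) were higher and 171 (16.1%) lower at 2 h.

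Single genes differed in how the step related to those outer arrays. GRP3S was higher by 5.31 at 72 h than at 0 h (adjusted p = 4.83e-07, limma), in the direction of its rise. TCH3 had a difference of -4.43 at 72 h against 0 h (adjusted p = 1.66e-05) and MYB51 one of -1.74 (adjusted p = 8.44e-07), opposite to their rise in the step. CYP82C2 had -0.05 at 72 h against 0 h and was not called there. In the hypoxia list 19 of 26 genes were lower and 2 higher at 72 h than at 0 h, in DNA replication all 14 were lower, and in nuclear photosynthesis 35 of 47 were lower and none higher. Of the 4 photosynthesis genes that rose in the step, PSBQ2 was lower at 72 h than at 0 h, with -2.77. The other genes, LHCB1.3 (-0.40), PSAH1 (0.43) and LHCB3 (-0.69), were not called there.

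**Figure D5:**
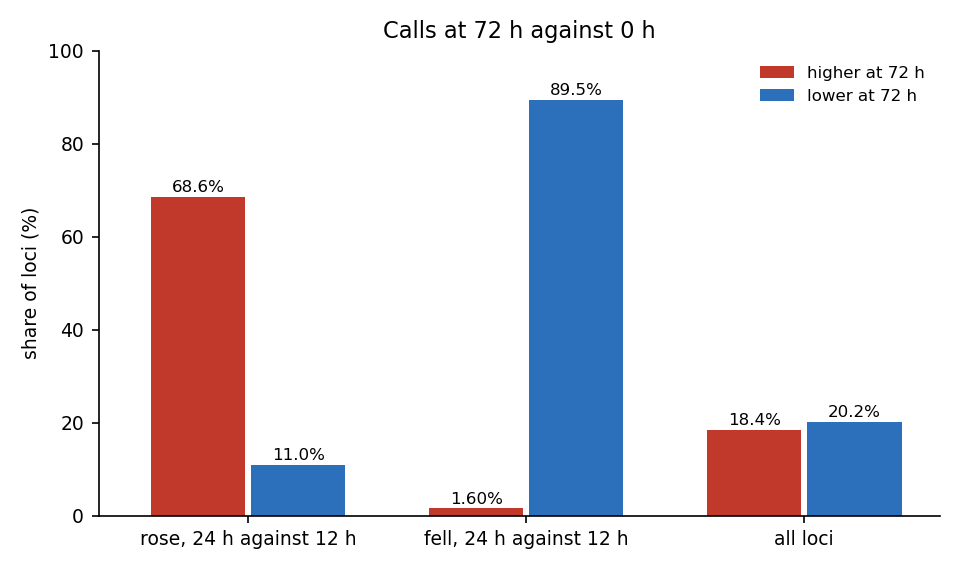
Share of loci (%, vertical axis from 0) called higher (red) or lower (blue) at 72 h than at 0 h, for loci that rose in the step (770), loci that fell (1065) and all loci (27981). Of the fallers 89.5% were lower at 72 h, against 20.2% of all loci, and of the risers 68.6% were higher, against 18.4%.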

How the data were processed

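RNA of whole seeds was hybridised to Affymetrix arrays from 50 ng of total RNA, with 3 arrays for each of 5 times. The authors deposited log2 values made with RMA, per the submitters' processing notes. For RMA's version, the probe design and the genome build, the entry is not given in the sources used here. From 35986 probe sets the one with the highest mean over 15 arrays was kept for each of 27981 loci. The reference gene table (TAIR10.1) held 27241 of them and supplied names, and 195 loci with values identical to another locus were tested but not named. The functions lmFit, contrasts.fit and eBayes of limma 3.58.1 (R 4.3.3) fitted 1 mean per time to all 15 arrays, two-sided, with no further term. No array was removed and no dim locus was filtered. Detection above background was not used, so changes of dim genes may be understated. The number of arrays limits the precision, and p-values measure the spread between seed pools.

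Replicate numbers did not pair the arrays: same-numbered 24 h and 12 h arrays had correlations of deviations of -0.07, -0.11 and 0.00. The 38 gene lists, in part taken from earlier work on these data, and the members were chosen with earlier results of these data known. Named genes were the 12 largest rises and 12 largest falls among called, separated loci, up to 4 called members per list, and ABI3, ABI5, EM1, EM6, RAB18 and RD29B. Other genes given with values were chosen after their values were seen. Alternatives were a replicate term, repeated quantile normalization, median centring, leaving out the lowest 25% of loci, a variance trend, array weights, every probe set, only the 6 arrays, adjusted p under 0.01 and leaving out single arrays. On simulated data of 27981 loci limma called 57% of 100 loci changed by 1, 95% of 100 changed by 2 and 5 unchanged loci. The simulated loci were independent, with the same normal spread on every array of a locus and no outlying array. Only those loci changed in the step, so the shares called need not hold for the real data.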

Additional observations from a re-analysis of the deposited data

How the results depend on the processing

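Of the named genes only ABI3, which was not called, changed sign under any alternative (-0.04 without 24 h replicate 2, -0.01 without 12 h replicate 1). The number of calls depended on the estimate of the spread. Fitting only the 6 arrays called 5605 loci (2323 rose, 3282 fell), array quality weights called 9337 (4363 and 4974), and leaving out 2 h replicate 2 called 5973 (2510 and 3463), with 342 rises and 440 falls of at least 1. At adjusted p under 0.01 the counts were 600 (271 and 329), of which 157 rose and 202 fell by at least 1. Leaving out each of the 6 compared arrays gave 655 (without 24 h replicate 2) to 1410 calls, 289 to 624 rises and 366 to 786 falls, and 147 to 257 rises and 212 to 312 falls of at least 1. The time concerned then holds 2 arrays, whose spread is taken to equal that of the other times.

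In the next counts only the step was refitted, and the calls at 72 h against 0 h stayed those of the main fit to all 15 arrays. Risers that were also higher at 72 h than at 0 h numbered 1466 of 2323 with only the 6 arrays and 2399 of 4363 with array weights. They numbered 1612 of 2510 without 2 h replicate 2, 159 of 271 at adjusted p under 0.01 and 168 to 437 without single compared arrays. Fallers that were also lower at 72 h numbered 2468 of 3282, 3260 of 4974, 2606 of 3463, 311 of 329 and 335 to 703 in that order. The other alternatives kept these counts within 1.5 times. Centring each array on its median turned the share of rises among calls to 50.8%, against 42.0%, and moved the median of all loci to 0.10. The replicate block, whose numbers do not pair the arrays, gave 1566 calls (648 and 918), of which 1512 were also called without it. Of the 91 called named genes 48 were called under every alternative fitted to 1 probe set per locus. Testing every probe set called 2539 and was not run for the lists or for 72 h against 0 h. Of 19 called named genes with several probe sets, none had probe sets of opposite sign.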

Other observations

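Gene families outside the lists were counted by symbol after the values had been seen, 20 families in all, so their counts are descriptions. Of 72 WRKY transcription factor genes 9 rose (12.5%) and none fell, beside 2.75% and 3.81% of all loci, and without 2 h replicate 2, 18 rose and 2 fell, beside 8.97% and 12.4%. WRKY30 had 4.91, 5.31 and 5.05 at 24 h, against 2.94, 2.99 and 2.72 at 12 h, and rose by 2.21 ± 0.21 (adjusted p = 7.41e-05, limma). Of 28 ERF genes 4 rose (14.3%), among them ERF5, the close relative of ERF6, by 1.53 ± 0.24, and 8 rose and 3 fell without 2 h replicate 2. Of 23 plant U-box ubiquitin ligase genes (PUB) 5 rose (21.7%), among them PUB23 by 1.36 ± 0.26 and PUB29 by 1.31 ± 0.17, and none fell. Of 29 tau-class glutathione S-transferase genes 4 rose (13.8%), and of 64 glycosyltransferase genes (UGT) 9 rose (14.1%) and 1 fell. The glutathione S-transferase genes gave 8 rises and 4 falls without 2 h replicate 2, and the UGT genes 16 and 2. Of 100 NAC genes 4 rose (4.00%) and 2 fell (2.00%), near the shares of all loci. Without 2 h replicate 2, 9 of them rose and 6 fell, beside 8.97% and 12.4% of all loci. The largest NAC rise was that of NAC042, by 2.53 ± 0.32, with 9.66, 9.42 and 9.29 at 24 h, against 7.46, 6.13 and 7.20 at 12 h. Of 80 SAUR genes 5 fell (6.25%) and 1 rose (1.25%), AT3G12955 by 0.96 ± 0.25, and the family's median was 0.06. Without 2 h replicate 2, 10 of the 80 fell, close to the 12.4% of all loci, and 3 rose, beside 8.97%.

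Some of the largest changes were next to each other in the reference table. IGMT1, IGMT3, IGMT2 and IGMT4 follow each other among coding genes and all rose, IGMT1 with 1.60 ± 0.25 (adjusted p = 0.00256, limma). GSTU11, beside GSTU12, rose by 2.07 ± 0.38. AT4G34780 and AT4G34800, on either side of AT4G34790, fell by 1.65 ± 0.41 and 0.81 ± 0.22. Close copies may share probes, and this was not tested.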
